A study of Mus musculus with 2 samples.

Results

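Hdc, Dmkn, Slc17a8, Plvap, Crip1, Crip3, Meig1, Nnat and Fam166b are 9 genes whose RNA marked different stages of multiciliated cell differentiation in cultures of mouse brain ventricular wall, among 32287 genes in the count table. They had been picked by name for large changes along the lineage in these same libraries, so their levels over the stages and their lineage contrasts are given as a description, with no test. The series holds 1 group of 2 samples, 1 droplet library per culture. Walls of the lateral ventricles of newborn mice (P0 to P2) were dissociated, the cells grew to confluence in serum, other cells were shaken off, and serum-free medium started differentiation 2 days before the cells were collected. C57BL/6N mice gave replicate 1 and C57BL/6J mice gave replicate 2, both with no other named allele or agent, so substrain, culture and library cannot be told apart. A flask received the equivalent of 2 ventricular walls, and no source used here says whether a library pooled animals or litters. The fit took out the shift that all populations of a library share. So p-values measure only how far differences between populations varied from 1 library to the other, which may in part be technical.

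Ependymal cells line the brain ventricles and move cerebrospinal fluid with tufts of motile cilia. A progenitor that enters this fate leaves division, builds many centrioles at once, most of them on ring-like bodies named deuterosomes, and then uses each centriole as the base of a cilium. The RNAs of centriole assembly are made for a short time in the deuterosomal stages, and those of the ciliary shaft, the axoneme, are kept in the finished cell. Of the 9 genes, Meig1 and Fam166b are known from sperm tails or cilia. The other 7 are better known from other tissues, namely Hdc from mast cells and histamine neurons, Slc17a8 from glutamate-releasing neurons and inner hair cells, Plvap from fenestrated endothelium, Dmkn from skin, Nnat from the developing brain, and Crip1 and Crip3 as small LIM-domain proteins.

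The genes lie at 9 separate places on 7 chromosomes of mm10, and the coordinates here are those of GENCODE M21. Meig1 (chr2:3409043-3422648, minus strand), Hdc (chr2:126593667-126619299, minus) and Nnat (chr2:157560078-157562522, plus) share chromosome 2 but are far apart on it. Nnat lies wholly inside Blcap, an imprinted gene of the opposite strand, with 2445 shared bases. Plvap (chr8:71497765-71511752, minus) overlaps 1819 bases of Gtpbp3, and Fam166b (chr4:43427019-43429134, minus) overlaps 70 bases of Rusc2, both on the opposite strand. No source used here says whether counting used strand, so reads of such pairs could be shared. Slc17a8 (chr10:89574020-89621253, minus), Dmkn (chr7:30763756-30781063, plus), Crip1 (chr12:113146316-113153879, plus) and Crip3 (chr17:46428926-46431776, plus) overlap no other annotated gene.

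Windows of 250 bases before an annotated start were found in RefSeq (GRCm38.p6) for 7 of the 9 genes, 12 windows in all. They were searched on both strands for a forkhead motif (TGTTTAC, or GTAAACA on the other strand), the kind of letters that FOXJ1, the regulator of motile cilia, recognises, and for an RFX half-site (GTTGCC, or GGCAAC), the letters read by the RFX factors of ciliated cells. The forkhead letters were in 3.17% of all 32851 windows, and among the 9 genes in 1 window, at a start inside Slc17a8 that lies 21438 bases from its outermost start. The RFX letters were in 10.4% of all windows and in 2 overlapping windows of Dmkn. A pair of E2F motifs (TTTCCCGC and TTTGGCGC, in 0.895% and 0.417% of all windows) was in none of the 12 windows. The motifs do not overlap one another in the windows that hold them, and a match is a description of the letters only. Shown here, 5′ to 3′ on the strand of the gene, is 1 window from each of the 3 profile shapes described below, with a further one for Nnat, so that the start regions of genes with unlike timing can be set side by side. Capitals mark the forkhead letters in Slc17a8 and the RFX letters in Dmkn. The windows are chr10:89599816-89600065 (minus) for Slc17a8, chr7:30763506-30763755 (plus) for Dmkn, chr4:43429135-43429384 (minus) for Fam166b and chr2:157559828-157560077 (plus) for Nnat.
Slc17a8: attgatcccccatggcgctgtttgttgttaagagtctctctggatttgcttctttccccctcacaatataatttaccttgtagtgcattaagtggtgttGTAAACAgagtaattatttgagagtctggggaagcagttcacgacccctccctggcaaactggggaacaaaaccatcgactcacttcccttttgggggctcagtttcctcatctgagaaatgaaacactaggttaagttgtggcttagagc
Dmkn: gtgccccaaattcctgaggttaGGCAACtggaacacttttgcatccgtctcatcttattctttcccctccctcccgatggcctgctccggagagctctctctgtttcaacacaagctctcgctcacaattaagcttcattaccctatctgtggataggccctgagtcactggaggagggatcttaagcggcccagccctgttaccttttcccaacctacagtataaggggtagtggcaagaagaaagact
Fam166b: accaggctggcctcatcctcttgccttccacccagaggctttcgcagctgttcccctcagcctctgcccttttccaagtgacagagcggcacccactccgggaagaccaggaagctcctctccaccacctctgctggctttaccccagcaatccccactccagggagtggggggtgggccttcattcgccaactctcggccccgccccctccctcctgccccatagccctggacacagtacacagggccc
Nnat: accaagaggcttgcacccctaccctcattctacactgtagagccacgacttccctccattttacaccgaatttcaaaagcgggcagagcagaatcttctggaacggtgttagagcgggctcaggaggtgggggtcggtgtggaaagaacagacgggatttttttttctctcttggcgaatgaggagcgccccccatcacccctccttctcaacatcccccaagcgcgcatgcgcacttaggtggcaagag
The Fam166b window was the most GC-rich of the 4, at 64.4% GC, against 54.8% for Nnat, 50.8% for Dmkn and 44.8% for Slc17a8. The Slc17a8 window shown is the one at the start inside the gene, picked for its forkhead letters. Its other window, 4 bases from the outermost start, had 57.2% GC and none of the motifs. Which start these cells used was not tested.

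The deposited table gives counts of unique molecular identifiers (UMIs, 1 per captured RNA molecule) for 12028 cells of replicate 1 and 4373 cells of replicate 2, with medians of 12708 and 14409 UMIs per cell. The submitters' metadata names 14 populations, 1 of them for cells with no population name. Levels are given as CPM, the UMIs of a gene summed per library and population and scaled to the same total for every sum. The population names were checked against marker lists. The 6 multiciliated markers summed to between 2306 and 5144 CPM in the 5 lineage stages, against 322 to 691 CPM in progenitors I and II, and the progenitor, microglia, neuroblast, oligodendrocyte precursor cell (OPC), oligodendrocyte and fibroblast lists were each highest in a population of that name. Mki67 and Top2a, which mark dividing cells, summed to 1398 and 1839 CPM in cycling progenitors. They were highest there in replicate 1, but in replicate 2 OPCs (2709 CPM) and neuroblasts (1902 CPM) were higher. If the names were made from the same expression values, as is likely, differences between populations are not independent of them. The libraries share 13 cell barcodes, of which 2 carry the same population name. Shares of cells with a UMI are given after thinning each cell to 5000 UMIs, which left out 607 shallower cells (51 and 54 neuroblasts among them). A fall in a share cannot tell fewer expressing cells from less RNA per cell, and intervals cover counting error only.

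**Figure D1:**
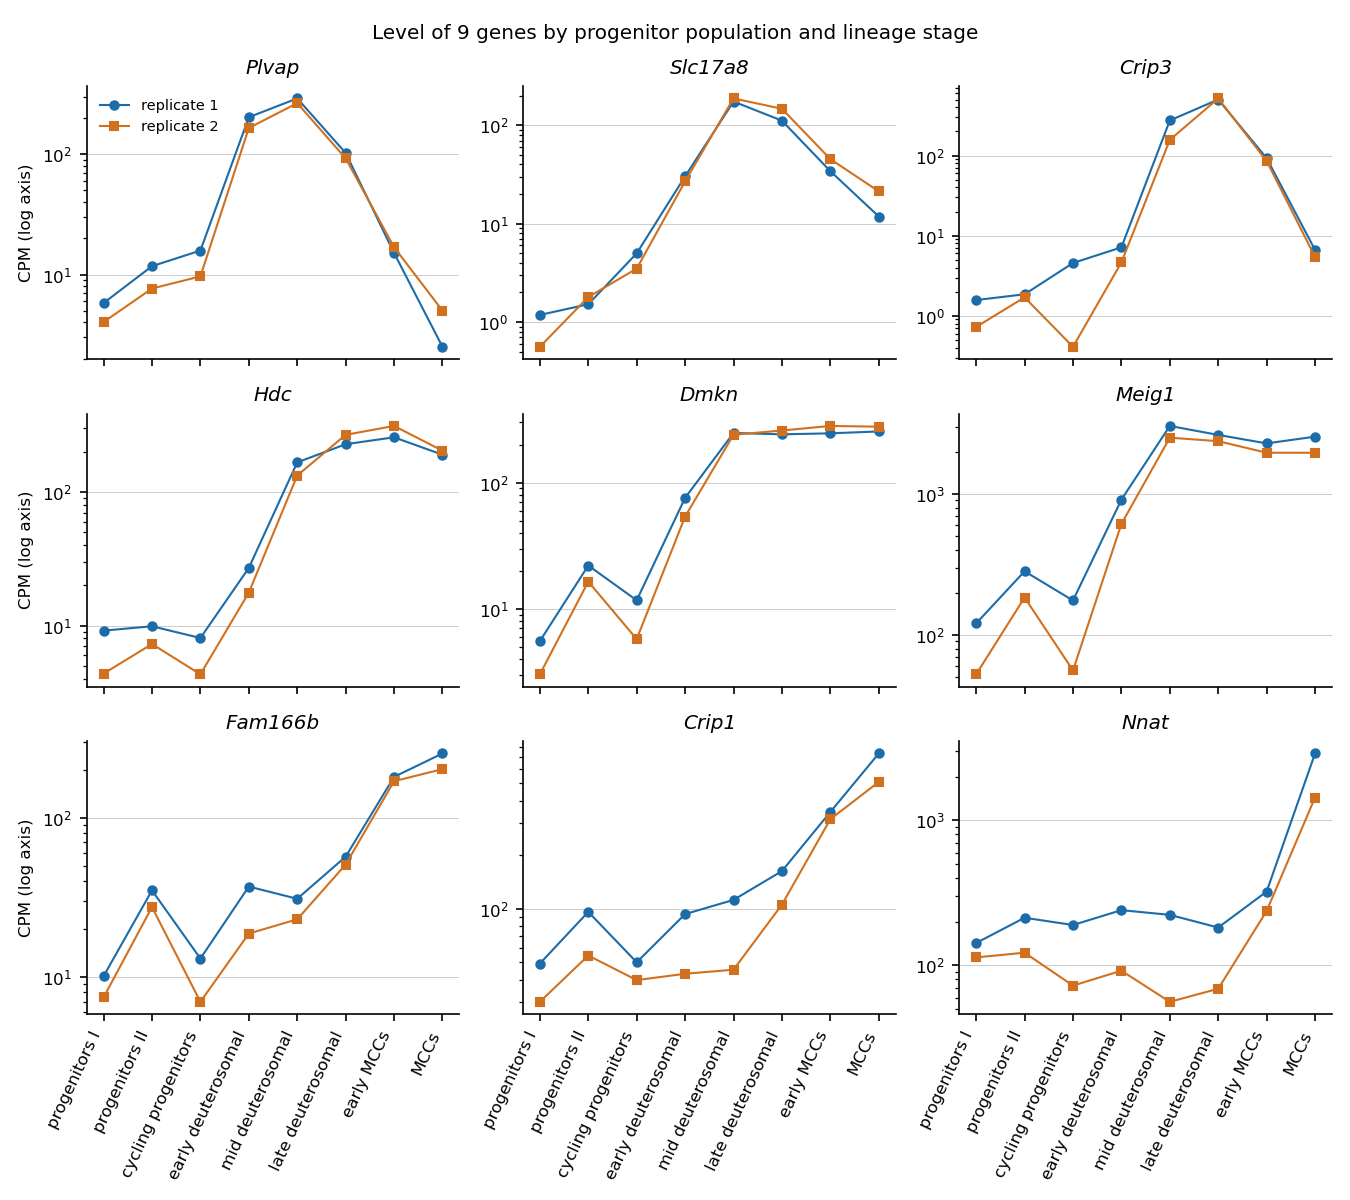
Level of each of the 9 genes (CPM, log axis) in progenitors I and II, cycling progenitors and the 5 stages of the multiciliated lineage, with 1 line per library. Plvap, Slc17a8 and Crip3 peak in the mid or late deuterosomal stage and fall again, Hdc, Dmkn and Meig1 stay high to the end, and Fam166b, Crip1 and Nnat are highest in MCCs.

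The first shape was a short rise in the deuterosomal stages, shown by Plvap, Slc17a8 and Crip3. Plvap encodes a membrane glycoprotein that forms the diaphragms of endothelial fenestrae and caveolae. From progenitors I and II and cycling progenitors through early, mid and late deuterosomal cells to early multiciliated cells (MCCs) and MCCs, its level in replicate 1 was 5.79, 11.7, 15.8, 203, 291, 102, 15.1 and 2.51 CPM. In replicate 2 it was 4.03, 7.65, 9.65, 165, 266, 92.4, 16.9 and 5.01 CPM. It was thus near its peak already in early deuterosomal cells, and the ranges of the libraries did not overlap between mid, early and late deuterosomal cells, in that order from the highest. In MCCs it was below progenitors II of the same library, and 116-fold and 53.0-fold below its own mid deuterosomal level in the 2 libraries. Thinned cells with a Plvap UMI made up 74.2% (95% exact interval 71.1 to 77.0) and 70.8% (65.7 to 75.5) of mid deuterosomal cells, against 2.69% and 1.98% of progenitors I. Without thinning the mid deuterosomal share was 97.2% in both libraries. In microglia, a population outside the lineage, 2.44% and 2.56% of thinned cells held a Plvap UMI, about the share of progenitors I.

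The summed level of endothelial markers was low where Plvap was high. The 9 endothelial markers together summed to between 7.40 and 34.7 CPM in the lineage stages, against 22.4 to 52.5 CPM in progenitors I and II, and their lowest sums, 7.40 and 8.93 CPM, were in mid deuterosomal cells, where Plvap was highest. Cdh5, Tek and Emcn, the cadherin, receptor and sialomucin that define endothelium, had no UMI in mid deuterosomal cells of either library. Of the 9 markers, 3 were tested in the lineage against progenitors I and II, with a median log2 fold change of 0.92 beside 0.01 over all genes. By edgeR, Vwf rose by 0.92 ± 0.38 (adjusted p = 0.0371), Kdr fell by 1.34 ± 0.12 (adjusted p = 1.4e-08), and Flt1, at 1.83 ± 0.82, did not pass (adjusted p = 0.0501). Kdr made up most of the sums, and their fall in mid deuterosomal cells followed it. It was itself lowest there of the 8 stages, at 4.04 and 5.82 CPM, against 21.5 and 40.9 CPM in progenitors I. Vwf and Flt1, at lower levels, went the other way. Vwf was at 1.42 and 0.906 CPM in mid deuterosomal cells, against 0.393 and 0.224 CPM in progenitors I, and Flt1 at 1.65 and 2.20 CPM, against 0.179 and 0.224 CPM. The part of these low levels in the Plvap values was not tested. Gtpbp3, the mitochondrial tRNA modifying enzyme whose gene overlaps Plvap, stayed between 2.49 and 6.69 CPM over the 8 stages of both libraries.

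Slc17a8 encodes VGLUT3, which loads glutamate into synaptic vesicles. Its level over the same 8 stages was 1.18, 1.51, 4.99, 30.3, 174, 111, 34.2 and 11.8 CPM in replicate 1. In replicate 2 it was 0.560, 1.79, 3.49, 26.9, 187, 147, 45.3 and 21.3 CPM. Its level in early deuterosomal cells was still far below that in mid deuterosomal cells, and it declined more slowly than Plvap, so that early MCCs and MCCs of both libraries still lay above all progenitor populations. The fold between mid deuterosomal cells and progenitors I was 148 in replicate 1 and 335 in replicate 2, on 33 and 10 UMIs in progenitors I. Thinned cells with a UMI made up 53.3% (49.9 to 56.6) and 58.1% (52.7 to 63.3) of mid deuterosomal cells, against 0.353% and 0.165% of progenitors I. The 7 other vesicular transmitter transporters, among them those of the classical glutamate and GABA neurons, together summed to between 1.01 and 2.19 CPM in the lineage stages, against 0.966 to 1.89 CPM in progenitors I and II. Of 12 genes of glutamate and GABA supply, 1 was higher and 6 were lower in the lineage than in progenitors I and II, with a median log2 fold change of −0.27 beside 0.01 over all 15877 genes tested. In that comparison 36% of all genes were called higher and 34.9% lower by edgeR's quasi-likelihood test at a Benjamini-Hochberg adjusted p under 0.05. Glul, which makes glutamine from glutamate, fell by 1.51 ± 0.09 on the log2 scale (adjusted p = 7.08e-12), and Slc1a4, an exchanger of neutral amino acids, rose by 1.03 ± 0.10 (adjusted p = 1.71e-09).

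Crip3, a LIM-domain protein known from thymus, was the last of the 3 to rise. Its levels in the 8 stages were 1.57, 1.86, 4.56, 7.16, 274, 500.3, 92.7 and 6.64 CPM in replicate 1. In replicate 2 they were 0.728, 1.70, 0.411, 4.65, 157, 517, 85.6 and 5.43 CPM. Unlike Plvap and Slc17a8 it was still within a few CPM of progenitors in early deuterosomal cells, and it was higher in late than in mid deuterosomal cells of both libraries. The log2 fold change of mid over early deuterosomal cells was 5.28 ± 0.33 (SE of the fit, n = 2 libraries), and MCCs were lower than early MCCs by a log2 fold change of −3.94 ± 0.33. Thinned cells with a UMI made up 62.7% (58.0 to 67.3) and 70.2% (60.9 to 78.4) of late deuterosomal cells, against 0.882% and 0.330% of progenitors I.

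Single cells of 1 stage held Crip3 unevenly. In thinned late deuterosomal cells the median was 1 and 2 UMIs, the 90th percentile 7 and 7.7, and the highest cell had 21 and 16. The top 10% of late deuterosomal cells held 38.6% and 39.5% of all Crip3 UMIs, and the top 10% of mid deuterosomal cells 50.8% and 63.8%. For Plvap in mid deuterosomal cells these shares were 28.6% and 29.1%. Each cell has a deposited cell cycle class, which runs from G0 and G1 over S and S/G2 to G2/M. Mid deuterosomal cells of class S/G2 had 321 and 169 CPM of Crip3, against 78.5 and 103 CPM in those of class S. For Slc17a8 the S/G2 cells had 190 and 196 CPM, against 109 and 133 CPM in class S, while for Plvap they had 275 and 261 CPM, against 425 and 282 CPM in class S. Both libraries had the same order for each of the 3 genes, and these class differences inside mid deuterosomal cells were not tested.

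The second shape was a rise over the early and mid deuterosomal stages that lasted to the end, shown by Hdc, Dmkn and Meig1. Hdc encodes histidine decarboxylase, the enzyme that makes histamine. Over the 8 stages its level was 9.16, 9.87, 8.07, 27.0, 166, 228, 257 and 190.0 CPM in replicate 1. Replicate 2 had 4.37, 7.27, 4.31, 17.6, 133, 268, 312 and 204 CPM. Early MCCs were highest in both libraries, but their range overlapped that of late deuterosomal cells, and MCCs were lower than both. Thinned cells with a UMI made up 59.6% (55.7 to 63.4) and 62.0% (53.7 to 69.8) of early MCCs, against 3.75% and 2.23% of progenitors I.

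Most mast cell markers were at or near 0 in the lineage. Of the 6 mast cell markers, Cpa3, Tpsb2, Mcpt4 and Fcer1a had no UMI in any stage from early deuterosomal cells to MCCs of either library, and the list summed to between 2.23 and 7.89 CPM there. Most of that was Kit, a growth factor receptor that is not restricted to mast cells. It had 5.63 and 7.72 CPM in MCCs, against 1.22 and 2.41 CPM in progenitors I, and rose in the lineage by a log2 fold change of 0.66 ± 0.18 (adjusted p = 0.0024 by edgeR). Kit was the only mast cell marker tested, and its part in the Hdc values was not tested. Fibroblasts had the highest sums of the list, 15.2 and 41.6 CPM. Of 11 other genes of histamine synthesis, uptake, breakdown and reception, 7 were tested in the lineage against progenitors I and II, where 3 were higher and 1 was lower, with a median log2 fold change of −0.10. In that comparison 36% of all genes were called higher and 34.9% lower. Maoa and Maob, the amine oxidases that act on methylated histamine, rose by log2 fold changes of 1.05 ± 0.09 and 1.23 ± 0.14 (adjusted p = 1.27e-09 and 2.06e-08). Hnmt, which methylates histamine, fell by 0.77 ± 0.10 on the log2 scale (adjusted p = 2.69e-07), with 9.08 and 5.63 CPM in MCCs against 17.3 and 7.84 CPM in progenitors I. Aoc1, the secreted diamine oxidase, was called higher at no more than 3.32 CPM in any lineage stage. Slc18a2, the transporter that packs histamine into vesicles in neurons and mast cells, had between 0 and 6 UMIs in each library and lineage stage and did not pass (log2 fold change −0.10 ± 0.49, adjusted p = 0.873).

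Dmkn encodes dermokine, a secreted protein of stratified epithelium. Its levels in the 8 stages were 5.54, 22.0, 11.7, 75.8, 248, 242, 246 and 255 CPM in replicate 1. In replicate 2 they were 3.02, 16.4, 5.75, 53.9, 239.9, 259, 282 and 278 CPM. From mid deuterosomal cells on it formed a plateau, the ranges of the 4 last stages overlapping their neighbours, and it was already higher in progenitors II than in progenitors I of both libraries. Thinned cells with a UMI made up 61.7% (59.5 to 63.8) and 58.2% (52.0 to 64.3) of MCCs, against 2.12% and 1.40% of progenitors I. Of 14 other genes of the dermokine locus and of epithelia, 5 were tested. All 5 were higher in the lineage, with a median log2 fold change of 1.40, where 36% of all genes were called higher. The median gene, Epcam, had no more than 0.740 CPM in any lineage stage. The untested genes each had no more than 0.937 CPM there, and Krt5, Krtdap and Cldn4 had no UMI in the lineage. Sbsn, a neighbour of Dmkn in the same gene cluster, differed by a log2 fold change of only 0.34 ± 0.09 (adjusted p = 0.00215). Krt8, a keratin of simple epithelia, reached 67.0 and 39.1 CPM in late deuterosomal cells, against 0.322 and 0.168 CPM in progenitors I, and Krt18, its usual partner, was highest in MCCs at 24.2 and 26.1 CPM.

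Meig1 encodes a small protein that mice need to assemble the sperm tail, together with partners such as Spag16. Over the 8 stages its level was 121, 283, 176, 912, 3043, 2627, 2288 and 2554 CPM in replicate 1. Replicate 2 had 52.6, 184, 56.0, 614, 2512, 2372, 1964 and 1963 CPM. Mid deuterosomal cells were highest in both libraries, with a range that overlapped late deuterosomal cells. The ranges of early MCCs and MCCs also overlapped, but early MCCs lay below late deuterosomal cells. It was the only 1 of the 9 with a UMI in every thinned mid deuterosomal cell (875 of 875 and 346 of 346), and it was held evenly, with a median of 15 and 12 UMIs and a 10th percentile of 9 and 8. Among progenitors I, 39.3% (37.3 to 41.4) and 21.0% (18.7 to 23.4) of thinned cells held a UMI, with medians of 0. Among other genes of sperm tail assembly, Spag16 and Spag6l, proteins of the central pair of the axoneme, rose in the lineage by log2 fold changes of 2.35 ± 0.11 and 2.55 ± 0.18 (adjusted p = 5.86e-15 and 1.24e-08 by edgeR). Dnali1, a light chain of axonemal dynein, rose by 2.15 ± 0.21 and Cfap20, a protein of the doublet microtubules, by 0.79 ± 0.08 (adjusted p = 7.29e-07 and 2.42e-09 by edgeR).

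**Figure D2:**
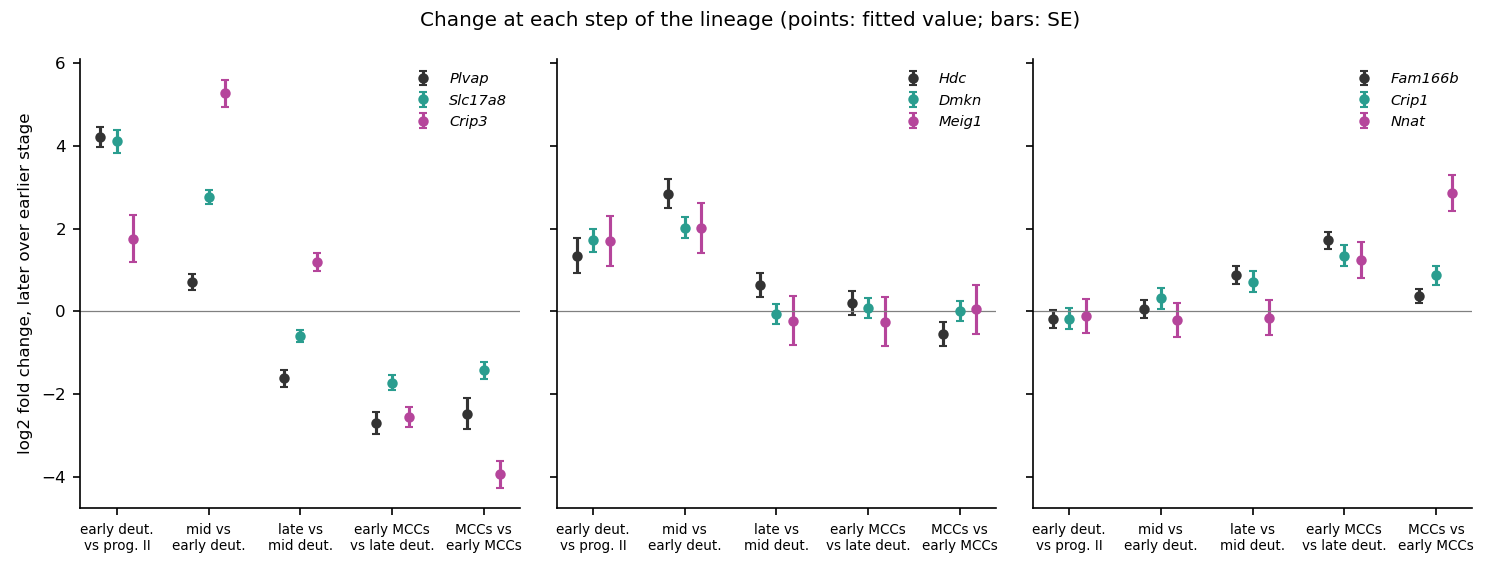
Fitted log2 fold change of each gene at the 5 steps from progenitors II to MCCs, later over earlier stage, with the SE of the fit as bars and 1 panel per profile shape. Plvap and Slc17a8 have their largest step into early deuterosomal cells, Crip3 and Hdc into mid deuterosomal cells, and Nnat into MCCs.

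The third shape was low until the late deuterosomal stage and highest in MCCs, shown by Fam166b, Crip1 and Nnat. Fam166b belongs to a family of proteins found inside the doublet microtubules of cilia. Its levels in the 8 stages were 10.1, 35.0, 13.1, 37.0, 31.0, 57.0, 181 and 253 CPM in replicate 1. In replicate 2 they were 7.45, 27.5, 6.98, 18.7, 23.0, 50.8, 169.6 and 202 CPM. Progenitors II, early and mid deuterosomal cells had overlapping ranges, and the level then stepped up in late deuterosomal cells, early MCCs and MCCs, each without overlap. Thinned cells with a UMI made up 69.2% (67.1 to 71.2) and 62.1% (55.9 to 68.0) of MCCs, against 5.07% and 3.47% of progenitors I. Among 20 other genes of proteins inside or associated with ciliary microtubules, 19 were tested. All 19 were higher in the lineage, where 36% of all genes were called higher. Their median log2 fold change was 2.61, beside 2.04 ± 0.13 for Fam166b. Tekt1, a tektin of the doublet, had 318 and 326 CPM in MCCs, against 32.5 and 23.4 CPM in progenitors I.

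Crip1 encodes a small LIM-domain protein known from gut and immune cells. Over the 8 stages its level was 49.3, 95.8, 50.1, 93.1, 112, 162, 347 and 736 CPM in replicate 1. Replicate 2 had 30.1, 54.7, 39.8, 43.2, 45.5, 105, 316 and 510 CPM. MCCs and early MCCs stood apart from each other and from all other stages, whereas the other 6 stages, put in the order of their levels, each overlapped the next. Progenitors II were higher than progenitors I and cycling progenitors, without overlap. Thinned cells with a UMI made up 83.7% (82.0 to 85.3) and 73.9% (68.2 to 79.2) of MCCs, against 18.7% and 11.7% of progenitors I. The other LIM proteins of this class took different courses: Crip2 and Csrp2 were higher in the lineage (log2 fold changes of 0.83 ± 0.33 and 1.43 ± 0.18, adjusted p = 0.0383 and 7.12e-06), Csrp1 was lower by −1.44 ± 0.07 (adjusted p = 2.69e-15), and Csrp3 was below the count filter. Crip1 and Crip3, though of 1 family, were highest at different stages, and Crip3 was down to 6.64 and 5.43 CPM in MCCs, where Crip1 was highest.

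Nnat encodes neuronatin, a small membrane protein of the endoplasmic reticulum expressed from the paternal allele. Its levels in the 8 stages were 143, 213, 189.7, 240.3, 223, 182, 323 and 2892 CPM in replicate 1. In replicate 2 they were 113, 122, 72.5, 91.9, 56.0, 69.0, 237 and 1436 CPM. It lay between 56.0 and 240.3 CPM before early MCCs and then stepped up in MCCs by a log2 fold change of 2.87 ± 0.44 over early MCCs, the largest rise of the 9 genes at that step. Thinned MCCs had a median of 10 and 4 UMIs, with a 10th percentile of 1 and 0, a 90th percentile of 43 and 22 and a highest cell of 140 and 97, so MCCs differed widely among themselves. Blcap, the gene around Nnat, lay between 13.6 and 31.5 CPM over the 8 stages. Like Nnat it was highest in MCCs of both libraries, at 30.0 and 31.5 CPM, against 16.7 and 15.5 CPM in mid deuterosomal cells. Averaged over the lineage stages it did not pass edgeR's test (log2 fold change −0.10 ± 0.08, adjusted p = 0.27), a mean that hides timing. Sharing of reads between the 2 genes was not tested. Of 31 other imprinted genes, 26 were tested, and 5 were higher and 17 lower in the lineage, with a median log2 fold change of −0.88. Over all genes 36% were called higher and 34.9% lower there. Mest fell by 2.52 ± 0.11 and Meg3 by 2.84 ± 0.25 on the log2 scale (adjusted p = 3.6e-13 and 2.47e-07).

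**Figure D3:**
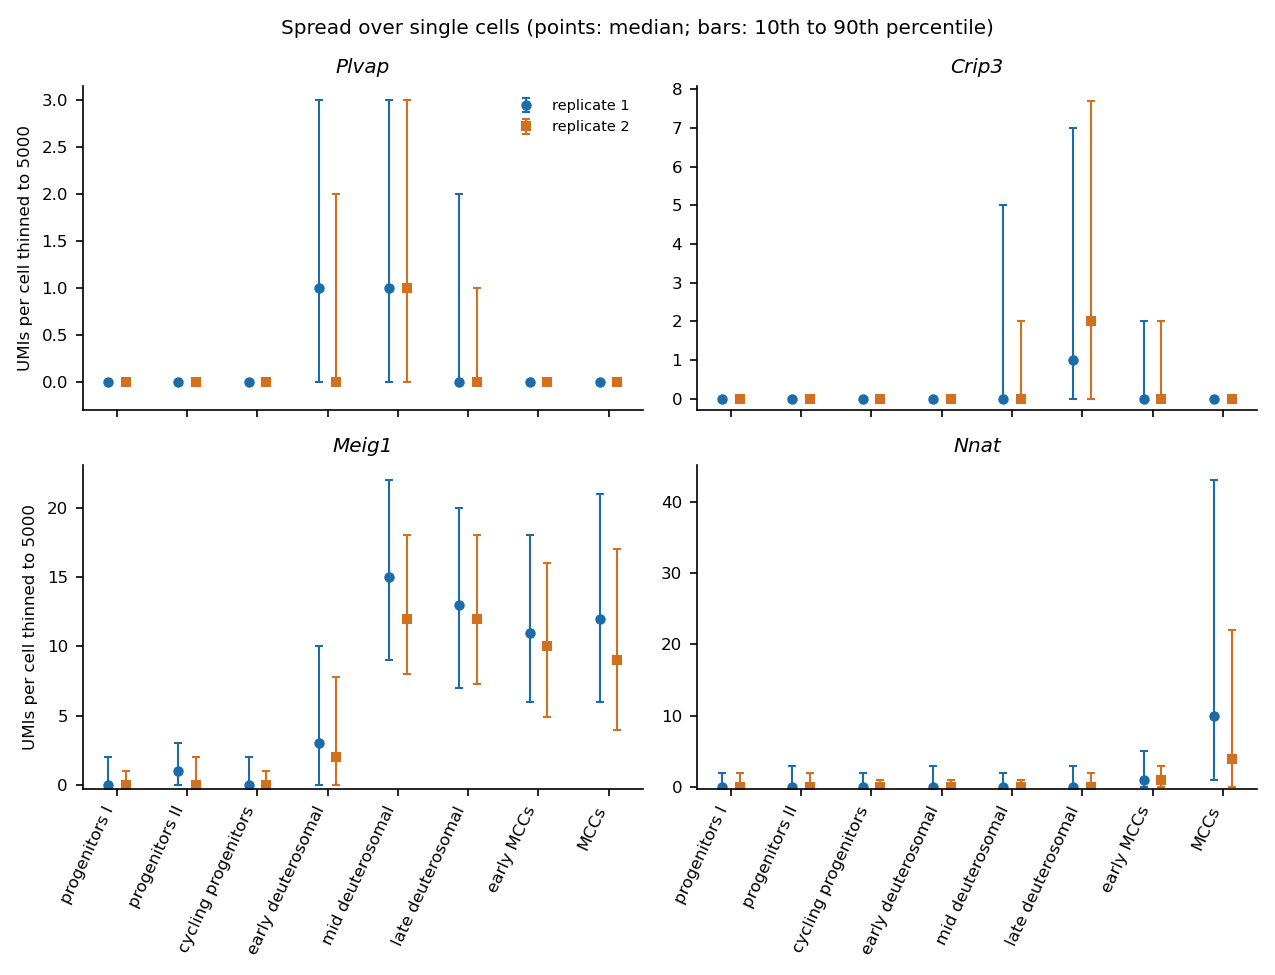
UMIs per cell after thinning to 5000 UMIs for Plvap, Crip3, Meig1 and Nnat in the 8 stages, with the median as a point and the 10th to 90th percentile as a bar, 1 colour per library. Meig1 is present in nearly every cell from the mid deuterosomal stage on, whereas Nnat in MCCs spans 1 to 43 UMIs in replicate 1 and 0 to 22 in replicate 2.

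Averaged over the 5 lineage stages and set against progenitors I and II, the contrast for which the genes had been picked, the log2 fold changes were 5.34 ± 0.17 for Slc17a8, 5.11 ± 0.27 for Crip3, 4.36 ± 0.20 for Dmkn, 4.10 ± 0.24 for Hdc, 3.81 ± 0.44 for Meig1, 2.69 ± 0.17 for Plvap, 2.04 ± 0.13 for Fam166b, 1.63 ± 0.16 for Crip1 and 0.83 ± 0.25 for Nnat. All 9 were above 0 in each library alone. Over all genes 70.8% were called in this contrast. The mean over stages hides the timing, since Nnat, the lowest of these values, had the largest rise into MCCs.

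At the single steps, the share of all genes called was 31.4% for early deuterosomal cells over progenitors II, 49% for mid over early, 21.8% for late over mid deuterosomal cells, 22.8% for early MCCs over late deuterosomal cells and 10.9% for MCCs over early MCCs. In the last 3 of these steps 8.61%, 10.3% and 4.56% of all genes were called higher and 13.2%, 12.4% and 6.29% lower. Into early deuterosomal cells, Plvap changed by 4.21 ± 0.23 and Slc17a8 by 4.11 ± 0.28 on the log2 scale, while Fam166b, Crip1 and Nnat lay between −0.19 and −0.11. Into mid deuterosomal cells the values were 2.85 ± 0.35 for Hdc, 2.02 ± 0.25 for Dmkn and 2.02 ± 0.61 for Meig1. Into early MCCs, Plvap, Crip3 and Slc17a8 fell by 2.70 ± 0.26, 2.55 ± 0.24 and 1.72 ± 0.18, as Fam166b, Crip1 and Nnat changed by 1.72 ± 0.20, 1.35 ± 0.25 and 1.24 ± 0.43.

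**Figure D4:**
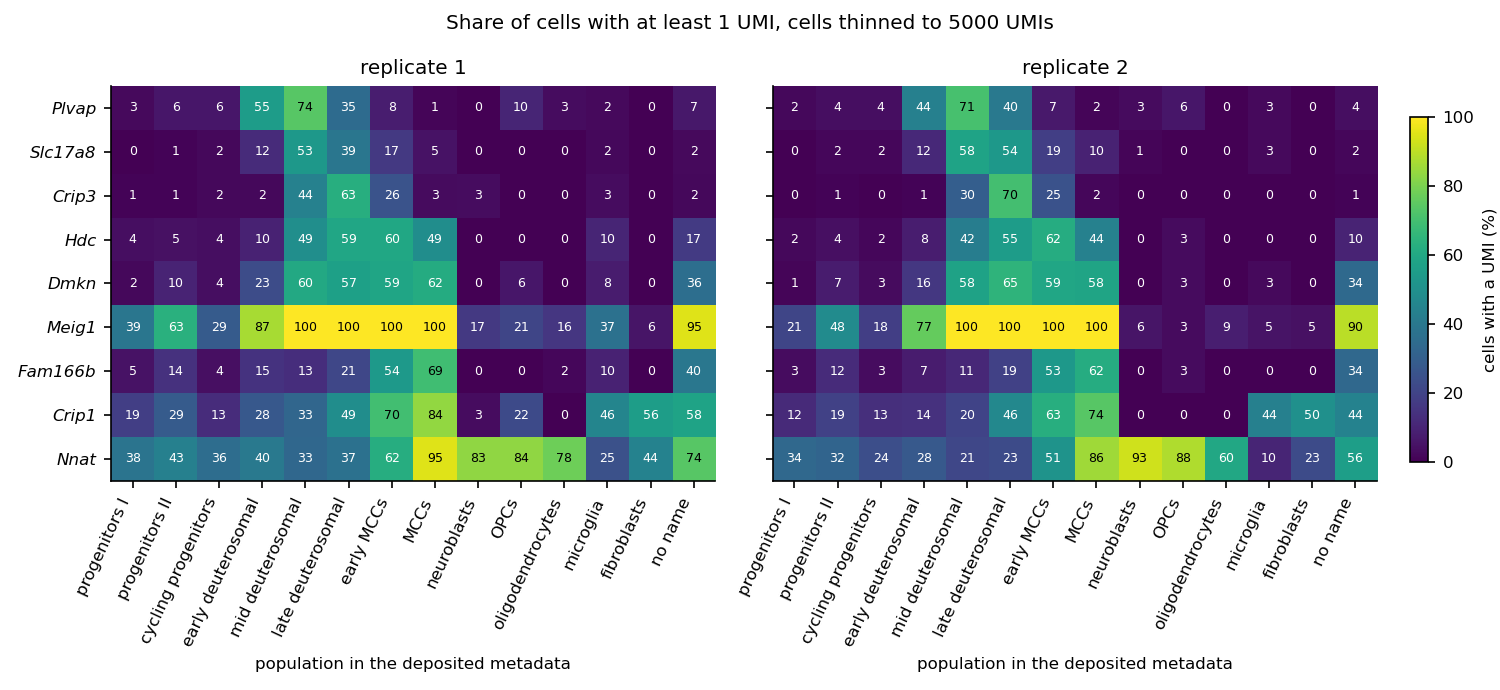
Share of cells with at least 1 UMI (percent, colour and number) for each of the 9 genes in the 14 deposited populations, cells thinned to 5000 UMIs, 1 panel per library. The 6 genes of the first 2 shapes, except Meig1, are seldom seen in neuroblasts, OPCs, oligodendrocytes and fibroblasts, Nnat is seen in most neuroblasts, OPCs and oligodendrocytes, and Crip1 in part of the microglia and fibroblasts.

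Outside the lineage, the 9 genes were set against progenitors I and II in the same fit. Progenitors I and II were also the lower arm of the contrast for which the genes had been picked, so these values too are a description, with no test. Neuroblasts, young neurons for which Dcx and Stmn2 were among the markers used here, had 1414 and 1119 CPM of Nnat. Progenitors I and II had 143 and 213 CPM in replicate 1 and 113 and 122 CPM in replicate 2. The neuroblast level of Nnat was the second highest of the 14 populations, without overlap with MCCs above it. The log2 fold change of Nnat was 2.85 ± 0.35, above 0 in both libraries. For Meig1, Fam166b and Crip1 the values were −2.83 ± 0.93, −4.48 ± 1.29 and −3.004 ± 0.77. Of all genes, 44.4% were called in neuroblasts by edgeR, 17.4% higher and 27.1% lower. Neuroblasts were shallow, with medians of 4591 and 5581 UMIs per cell. A count of 0 there allows up to 7.43 and 3.96 CPM, so a fall from a level at or below these values was not detectable. Dmkn, Hdc and Plvap had log2 fold changes of −2.69 ± 1.69, −2.41 ± 2.16 and −1.67 ± 1.28, below 0 in each library alone. Slc17a8 and Crip3 had −0.84 ± 1.92 and 0.04 ± 2.36.

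Oligodendrocyte precursor cells had 553 and 525 CPM of Nnat, a log2 fold change of 1.67 ± 0.37 over progenitors I and II, where 40.8% of all genes were called, 17.2% higher and 23.6% lower. Plvap had 31.7 CPM in OPCs of replicate 1 but 8.14 CPM in those of replicate 2. In oligodendrocytes Nnat had 325 and 389.8 CPM (log2 fold change 1.04 ± 0.40). Meig1, Fam166b and Crip1 differed in oligodendrocytes by −3.23 ± 1.00, −4.46 ± 1.30 and −5.21 ± 1.09 on the log2 scale, where 41.5% of all genes were called, 14.7% higher and 26.8% lower. Thinned cells with an Nnat UMI made up 83.3% and 92.8% of neuroblasts, 83.6% and 88.2% of OPCs and 77.8% and 60.0% of oligodendrocytes, against 38.4% and 33.9% of progenitors I.

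In microglia, the immune cells of the brain, the libraries differed. The fitted log2 fold change over progenitors I and II was above 0 for all 9 genes, but 5 of the 9 had the same sign in both libraries, the fewest of the comparisons made here. Of all genes, 52.6% were called in microglia, 28% higher and 24.6% lower. Crip1 had 195 and 152 CPM in microglia, against 49.3 and 95.8 CPM in progenitors I and II of replicate 1 and 30.1 and 54.7 CPM in those of replicate 2 (log2 fold change 1.95 ± 0.24, above 0 in both libraries). Hdc had 42.6 CPM in microglia of replicate 1 but 2.89 CPM in those of replicate 2, Dmkn 33.8 and 5.78 CPM, and Fam166b 31.0 and 1.44 CPM. From replicate 2 alone the log2 fold changes of these 3 were −0.64, −0.03 and −2.80, the opposite sign to the fit. Meig1 changed sign as well, with 464 and 57.8 CPM. Its fitted value was 1.13 ± 0.53, and −0.49 from replicate 2 alone. For Plvap the fitted value was 1.11 ± 0.42, but 0.01 ± 0.44 in thinned cells. Microglia of replicate 1 that held an Hdc UMI were deeper, with a median of 22811 UMIs against 12938.5 in those without. The 6 multiciliated markers summed to 712 CPM in microglia of replicate 1 and 144 CPM in those of replicate 2, none of them at 0, and their part in these values was not tested. The Crip1 level of microglia was 75.0% and 142% of the level over all cells of the same library. For the other 8 genes this ratio was 25.2% to 44.8% in replicate 1 and 3.14% to 54.6% in replicate 2.

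Inside early deuterosomal cells, the deposited cell cycle classes gave a comparison that had not been used to pick the genes, 145 and 121 cells in the classes from S to G2/M against 518 and 329 cells in G0 or G1. These classes presumably come from transcripts as well. Plvap had 402 and 282 CPM in the S to G2/M cells, against 150.4 and 115 CPM in the G0 or G1 cells. It rose by a log2 fold change of 1.42 ± 0.19 (adjusted p = 4.99e-05, edgeR's quasi-likelihood test), in both libraries. Slc17a8 had 57.2 and 51.0 CPM, against 23.2 and 16.6 CPM, and rose by 1.46 ± 0.25 (adjusted p = 0.000252, same test). For both genes, which have the first shape, the libraries of the S to G2/M class all lay above those of the G0 or G1 class. Crip3, also of the first shape, had a fitted value below 0 and did not pass.

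Fam166b and Crip1, of the third shape, went the other way. Fam166b had 16.6 and 8.66 CPM in the S to G2/M cells, against 42.3 and 23.1 CPM in the G0 or G1 cells, and fell by 1.34 ± 0.32 on the log2 scale (adjusted p = 0.00569 by edgeR). Crip1 had 42.6 and 25.5 CPM, against 106 and 50.8 CPM, and fell by 1.13 ± 0.34 (adjusted p = 0.0355 by edgeR). Both calls were lost when library was left out of the fit (adjusted p = 0.149 and 0.342) and when cells were thinned (0.051 and 0.137), with the direction kept. Of 9 genes, 2 were called higher and 2 lower, where 15.2% of all 15307 genes were called, 10.1% higher and 5.16% lower.

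The other 5 genes did not pass in that comparison. Meig1 had 1312 and 947 CPM in the S to G2/M cells, against 806 and 471 CPM in the G0 or G1 cells (log2 fold change 0.92 ± 0.52, adjusted p = 0.278 by edgeR), and Dmkn 103 and 60.6 CPM, against 68.6 and 51.0 CPM (0.48 ± 0.30, adjusted p = 0.324 by edgeR). Hdc was at 24.4 and 17.8 CPM, against 27.7 and 17.6 CPM (−0.06 ± 0.53, adjusted p = 0.972 by edgeR). Nnat had 98.7 and 77.0 CPM, against 278 and 98.3 CPM (−0.92 ± 0.46, adjusted p = 0.212 by edgeR). Crip3 was under 8 CPM in both classes (−1.17 ± 0.94, adjusted p = 0.467 by edgeR), below 0 in each library alone. Median depth per cell was 11620 and 16293 UMIs in the S to G2/M cells, against 11567.5 and 14125 UMIs in the G0 or G1 cells.

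**Figure D5:**
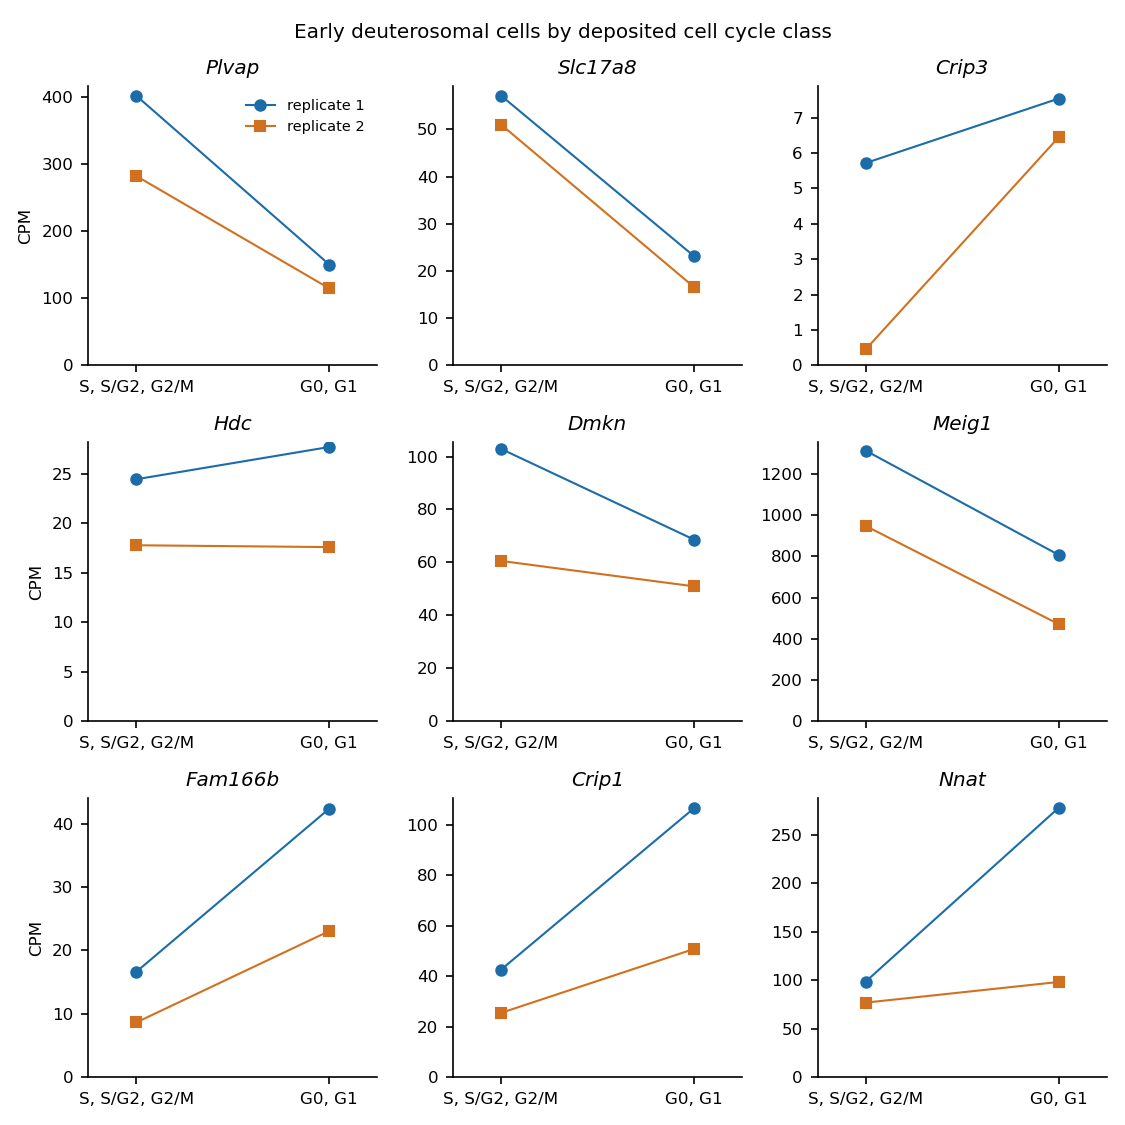
Level of the 9 genes (CPM) in early deuterosomal cells of the classes from S to G2/M (left) and of G0 or G1 (right), with 1 line per library. Plvap and Slc17a8 are higher and Fam166b and Crip1 lower in the S to G2/M cells of both libraries.

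Between the libraries, Meig1, Fam166b, Crip1 and Nnat were higher in replicate 1 in all 8 stages. The median ratio of replicate 1 over replicate 2 was 2.31 for Nnat, with a highest ratio of 3.98 in mid deuterosomal cells, 1.59 for Crip1, 1.39 for Meig1 and 1.31 for Fam166b. Slc17a8 was higher in replicate 1 in 3 of the 8 stages, with a median ratio of 0.887. With 1 library per substrain this difference has no replicate check.

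Each gene's pattern over the 26 library-by-population sums in the fit was set against 10046 other genes, by Pearson's r of log2(CPM + 1), as a description of sums that share libraries and depth. Plvap was most like Mcidas, a regulator of the multiciliated programme (r = 0.940), followed by Cdc20b and Shisa8. Slc17a8 was most like Smim24 (0.964), Ccdc192 and Ccdc87, and Crip3 most like Nat9 (0.944), Psmb6 and Bscl2. Hdc was closest to Styxl1 (0.982), Fam183b and Spint2. Dmkn was closest to Ppp1r32 (0.983), Hydin, a protein of the central pair of the axoneme, and Mdh1b. Meig1 was closest to Cfap161 (0.990), Tekt4 and Cfap299. Fam166b had Bbox1 (0.972), Cfap53 and Wdyhv1 as its nearest genes, and Crip1 had Pcbd2 (0.943), Paqr7 and Bmp2k. Nnat had no close match, its highest value being 0.758 with 2900052L18Rik, followed by Synrg and Tspan13. Among the 9 themselves r was 0.971 between Dmkn and Meig1 and 0.953 between Hdc and Meig1, and it was −0.519 between Nnat and Plvap.

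Within a stage, the genes were only loosely related cell by cell. Across thinned MCCs (2013 and 261 cells) Spearman's rho of Meig1 and Nnat was 0.38 and 0.31, and that of Crip1 and Nnat was 0.24 in both libraries. Across late deuterosomal cells (437 and 114 cells) rho of Crip3 and Hdc was 0.24 and 0.26, with both genes seen in 41.9% and 43.0% of cells, where independent detection would give 37.2% and 38.8%. Across early deuterosomal cells (635 and 443 cells) rho of Dmkn and Meig1 was 0.30 and 0.27. These values are over cells of 1 library and sparse counts, and only describe these cells.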

How the data were processed

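Single-cell RNA of 2 ventricular wall cultures was measured with the 10x Genomics 3′ v3 kit, 1 library per culture, per the labels' protocols. The authors' deposited values are raw UMI counts per gene and cell. The submitters' processing notes name Cell Ranger 3 and 5.0.1 and the build mm10, without saying which version made which library. No source used here says how population names and cell cycle classes were assigned or how doublets were treated. The shallowest cell held 2523 UMIs in replicate 1 and 2502 UMIs in replicate 2, and all deposited cells were kept. GENCODE M21 holds 32235 (99.8%) of the gene identifiers.

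Summing the counts by library and population gave 26 sums, from the 13 populations that reached 20 cells in both libraries, so fibroblasts were left out. The model in edgeR 4.0.16 (R 4.3.3) held population and library, with TMM scaling (factors between 0.739 and 1.20), the default count filter (15877 genes kept) and 12 residual degrees of freedom. Splitting early deuterosomal cells by class gave 28 sums, 15307 genes and 13 residual degrees of freedom. Quasi-likelihood tests were robust and two-sided, with Benjamini-Hochberg adjustment at 0.05, and SE was taken as log2 fold change over the root of F. Library was kept as a block, since its populations come from a single culture and run. Within a library the populations' deviations from their means had a median correlation of 0.184 (lowest −0.00168). Shares carry exact Clopper-Pearson 95% intervals (scipy 1.17.1).

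The 9 genes, the gene lists and the tests were chosen with earlier results of these data known. Named genes are the 9, list members, the 3 genes most like each of the 9 (among genes whose log2 CPM averages 3 or more) and genes that overlap them. Alternatives were DESeq2 size factors, the DESeq2 1.42.0 test, no count filter, no library term, thinned cells, no unnamed cells, each replicate left out and the deepest 5% of cells left out. The fit was checked on simulated counts. Tests of the 9 genes in neuroblasts, OPCs, oligodendrocytes and microglia had been planned, but are given as a description because progenitors I and II also served in picking the genes. The summary of 1 gene list is not reported here.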

Additional observations from a re-analysis of the deposited data

Results flagged for a closer look

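Some levels appeared in cells that entered none of the comparisons, above both non-cycling progenitor populations in each library. Cells with no population name had mean levels of 931 CPM for Meig1, 681 CPM for Nnat, 249 CPM for Crip1, 112 CPM for Dmkn, 103 CPM for Fam166b, 38.8 CPM for Hdc, 5.45 CPM for Slc17a8 and 4.56 CPM for Crip3. The 6 multiciliated markers summed to 1703 and 1508 CPM in these cells, and their part in these levels was not tested. Fibroblasts, with 18 and 22 cells too few to be fitted, had a mean of 169 CPM of Crip1.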

How the results depend on the processing

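Without library in the fit (no replicate block), fewer genes were called: 1843 in place of 4991 for early deuterosomal cells over progenitors II, 4541 in place of 7780 for mid over early, 996 in place of 3462 for late over mid, 1278 in place of 3613 for early MCCs over late deuterosomal cells, 135 in place of 1723 for MCCs over early MCCs and 748 in place of 2330 for the cell cycle classes. Thinned cells, which hold fewer counts, gave 1752, 2238 and 1299 for late over mid, early MCCs over late deuterosomal cells and the classes. The other counts, 11248 for the lineage, 7055 for neuroblasts, 6484 for OPCs, 6592 for oligodendrocytes and 8349 for microglia, stayed within 1.5 times under the alternatives run. In microglia, Hdc, Dmkn and Fam166b ranged from −0.64 to 2.43, −0.0333 to 1.88 and −2.80 to 0.9951 (log2) between replicate 2 alone and replicate 1 alone. The Crip1 class call was also lost with no filter (0.0544) and without the deepest cells (0.0639). The causes were not tested. Of the 54 fold changes of the 9 genes in the lineage contrast and its steps, 16 moved by more than their SE without replicate 1. Without replicate 2, 10 moved, and in thinned cells 6 did, while the other alternatives left all 54 within it. The stage of the highest level was the same for all 9 genes without the deepest cells or replicate 2, and for 8 without replicate 1. Dmkn moved along its plateau, to early MCCs without replicate 1 and to late deuterosomal cells by thinned share. Depth limits fibroblasts most, where a count of 0 allows 11.4 and 8.92 CPM.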

Other observations

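Cells with no population name held an Nnat UMI in 73.8% and 56.2% of thinned cells and a Meig1 UMI in 95.3% and 89.7%, shares between those of progenitors II and MCCs. Their Nnat count per thinned cell had a median of 2 and 1, with a highest cell of 114 and 35. In mid deuterosomal cells, whose Nnat level was low, the top 10% of cells held 74.3% and 68.0% of all Nnat UMIs, and single cells reached 40 and 10 UMIs.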
